A study of Homo sapiens with 26 samples.

Results

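Interferon-stimulated genes are the genes a cell switches on when it senses interferon, and 50 of them were followed here across LoVo cells, a human colorectal cancer line. The 50 were chosen by gene symbol, as core members of this response, and all 50 are listed in both deposited tables, among 18165 genes in the first and 17734 in the second. Palbociclib, an inhibitor of the cell cycle kinases CDK4 and CDK6, was used in the study to drive cells into senescence. The study asked how PIK3CA mutations alter that response, what medium from senescent cells does to other cells, and what the EGF receptor kinase inhibitor erlotinib adds. Besides wild-type (WT) LoVo cells there were 2 derived lines, PIK3CA E545K and PIK3CA H1047R, made in WT LoVo cells with lentiviral vectors. The series description names 1 clone of each mutant line for the palbociclib experiment and does not name a clone for the other libraries. A difference between the lines is therefore a difference between particular derived lines, and PIK3CA genotype and clone cannot be told apart. The first table holds 18 libraries: each of the 3 lines in 0.5 µM palbociclib, in medium conditioned by senescent cells, and in DMSO, the vehicle, with 2 libraries per group. The second holds 8: both mutant lines in 0.5 µM palbociclib with 4 µM erlotinib, and in 0.5 µM palbociclib alone, again with 2 libraries per group. Palbociclib and DMSO lasted 72 hours and palbociclib with erlotinib 48 hours per the labels' protocols, which also give 48 hours for control cells without saying which these are. Neither the hours in conditioned medium, nor the line that produced it, nor how long the cells of the second table were kept in palbociclib alone is given in the sources used here. Nothing states that the 2 libraries of a group came from separate cultures, so p-values rest on the spread between replicate libraries, which may be technical. For each gene that spread was pooled over all groups of a table.

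Cells that detect foreign or misplaced nucleic acid make type I or type III interferon, which binds receptors on the same or neighbouring cells and activates the kinases JAK1 and TYK2. These phosphorylate transcription factors that join IRF9 and bind the interferon-stimulated response element (ISRE) in promoters. The products block virus entry, degrade or sequester viral RNA, tag proteins with ISG15, or feed back on the pathway. Many of these genes are also reported to be active in senescent cells and in tumour cells without infection.

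Values are FPKM, in which fragment numbers are divided by transcript length and library size. Library totals of FPKM ran from 446862 to 524290 in the first table and from 441643 to 464405 in the second, read depth is unknown, and 11453 to 12157 genes per library reached 1 FPKM. The correlation between the replicates of a group, taken over genes, lay between 0.9867 and 0.9974 in the first table and between 0.9904 and 0.9973 in the second, with H1047R cells in palbociclib lowest in each. All 50 genes passed the filter of at least 1 FPKM in at least 2 libraries of a table. Over the 12607 genes that passed in the first table, the libraries labelled WT in conditioned medium stood apart from the other WT libraries. Their group mean correlated at 0.9897 with H1047R in conditioned medium, 0.9856 with H1047R in DMSO and 0.968 with H1047R in palbociclib. With E545K it correlated at 0.9768 in palbociclib, 0.9711 in conditioned medium and 0.9709 in DMSO. Its correlation was 0.9481 with WT in palbociclib and 0.9379 with WT in DMSO, lower than with any group of the mutant lines. The median absolute log2 difference of the 50 genes was 0.2153 between WT in conditioned medium and H1047R in DMSO, and 0.5702 between WT in conditioned medium and WT in DMSO. PIK3CA itself stood at 6.20 and 5.93 FPKM in the libraries labelled WT in conditioned medium, against 5.38 and 5.42 in WT DMSO libraries and 6.36 and 7.19 in H1047R DMSO libraries. In E545K cells it stood at 15.2 and 16.3 FPKM in conditioned medium, 10.4 and 9.92 in palbociclib and 8.20 and 7.37 in DMSO, in which mutant and wild-type transcripts are counted together. The E545K DMSO group correlated at 0.9615 with E545K in palbociclib and 0.9503 with E545K in conditioned medium. It correlated at 0.9741, 0.9709 and 0.9706 with WT in palbociclib, conditioned medium and DMSO. With H1047R the values were 0.9725 in DMSO, 0.9611 in conditioned medium and 0.9508 in palbociclib. What sets the WT conditioned-medium libraries or the E545K DMSO libraries apart was not tested, and that limit holds for each result that uses them. The epithelial markers EPCAM, KRT8 and KRT18 were at 182 FPKM or more in every library, whereas KRT20 stayed at or below 1.20. Of the leukocyte markers PTPRC reached at most 1.55 FPKM and LYZ 3.42, whereas CD68 stood at 24.1 to 49.4 in the first table and 32.4 to 68.9 in the second. Of the fibroblast and endothelial markers COL3A1 reached 19.6 FPKM and COL1A1 3.67, whereas LUM reached at most 0.06 and CDH5 at most 0.01, and the part of other cell types in the results was not tested.

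Most of the promoters examined carried the ISRE letters. RefSeq windows from 250 bases before to 50 bases after the start site, build GRCh38.p14, were found for 41 of the 50. The ISRE was searched as GAAA, any 2 bases and again GAAA, on both strands (TTTC, any 2 bases and TTTC on the opposite one), and STAT dimer sites (GAS) as TTCNNNGAA, which reads alike on both strands. An ISRE match lay in the windows of 29 of the 41 (70.7%), against 1195 of 27305 genes with a window (4.38%). GAS matches lay in 11 of the 41 (26.8%) and in 9.38% of all genes with a window, and in 5 members an ISRE and a GAS match overlapped. At least 2 ISRE matches in a window were found in 15 members. All 3 IFIT genes with a window, all 4 genes of the ADP-ribosylation group and all 3 membrane-restriction genes with a window had a match, against 2 of 6 in the group of TRIM and nuclear body genes. A match describes these letters in this window and does not show that a factor binds there, nor does a missing match show the reverse. Members with a window but no match were HERC6, UBE2L6, OAS1, ADAR, CMPK2, SAMD9L, TRIM25, SP100, SP110, HELZ2, IFI35 and XAF1. USP18, IFIT2, IFITM2, LY6E, OAS2, OASL, MX2, TRIM22 and PML had no window.

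Promoter stretches of 6 members are shown because these genes mark the contrasting patterns described below. IFI27, IFI6 and OAS3 were highest in E545K cells in conditioned medium, and IFIT1, ISG15 and RSAD2 were higher in H1047R than in E545K cells under palbociclib in both tables. Each stretch starts 180 bases before the start site, ends before the first exon or earlier annotated exon, reads 5′ to 3′ on the strand of the gene, and has the ISRE matches in capitals.
IFI27, chr14:94110556-94110677 (+): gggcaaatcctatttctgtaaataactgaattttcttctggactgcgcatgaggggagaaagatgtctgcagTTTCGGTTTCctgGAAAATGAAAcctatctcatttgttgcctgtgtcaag
IFI6, chr1:27672219-27672372 (-): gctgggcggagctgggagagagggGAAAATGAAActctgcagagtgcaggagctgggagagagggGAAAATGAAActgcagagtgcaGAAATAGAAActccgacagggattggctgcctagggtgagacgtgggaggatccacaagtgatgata
OAS3, chr12:112938294-112938351 (+): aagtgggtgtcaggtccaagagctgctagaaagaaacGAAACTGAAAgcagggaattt
IFIT1, chr10:89392443-89392545 (+): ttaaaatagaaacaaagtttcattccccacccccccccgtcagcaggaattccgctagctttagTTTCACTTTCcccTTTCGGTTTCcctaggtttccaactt
ISG15, chr1:1013317-1013422 (+): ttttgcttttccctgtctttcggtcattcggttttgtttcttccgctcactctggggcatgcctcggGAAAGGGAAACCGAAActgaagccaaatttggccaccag
RSAD2, chr2:6877597-6877664 (+): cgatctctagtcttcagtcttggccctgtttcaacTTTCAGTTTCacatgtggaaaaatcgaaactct
All 6 were chosen among members with a match, so they say nothing of how matches divide between the patterns. In ISG15 the 2 matches share bases, and in IFI6 the first 2 of the 3 matches have the same letters.

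**Figure D1:**
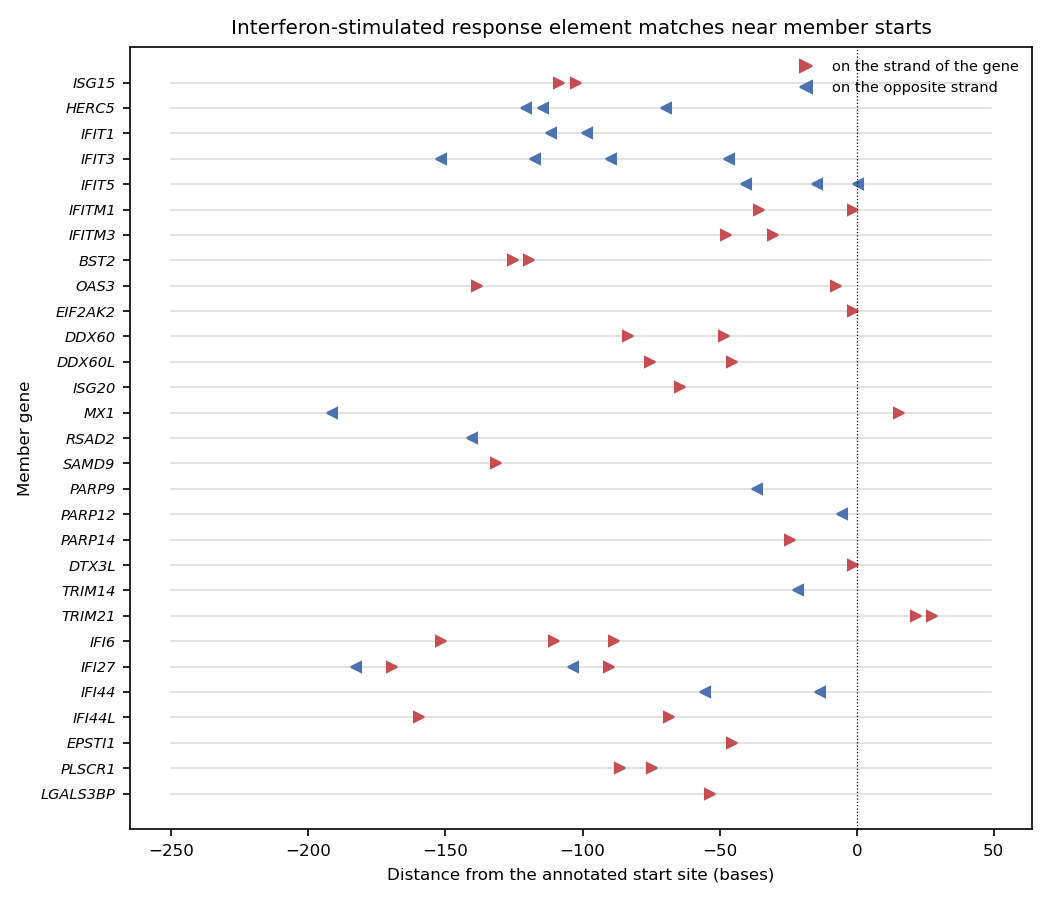
ISRE matches in the 29 members that have at least 1, by distance in bases from the annotated start site (dotted line), red for the strand of the gene and blue for the opposite strand. Start windows of a gene share a row, grey lines mark the searched window, and most matches lie before the start.

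Of the 50 genes, 37 had their highest mean among the 9 groups of the first table in E545K cells in conditioned medium, where 17.7% of all 12607 tested genes had their maximum. In 33 of those 37 both libraries were above both libraries of the next group. The matching share over all tested genes was not computed, so this count only describes the members. Another 8 of the 50 genes peaked in H1047R cells in palbociclib (11% of all tested genes) and 2 in E545K cells in palbociclib (14.4%). In WT cells 2 peaked in palbociclib (9.06%) and 1 in DMSO (11%). WT cells in DMSO had the lowest level for 25 of the 50, and for 43.8% of all tested genes. Together the 50 genes took 1.221% and 1.187% of the FPKM sum in E545K cells in conditioned medium, against 0.34% and 0.3426% in E545K cells in DMSO. Their share was 0.7401% and 0.7779% in H1047R cells in palbociclib, 0.375% and 0.3701% in H1047R cells in conditioned medium, and 0.3722% and 0.346% in H1047R cells in DMSO. In WT cells it was 0.6451% and 0.6401% in palbociclib, 0.3383% and 0.3523% in conditioned medium, and 0.3853% and 0.3923% in DMSO. The summed share was thus higher in palbociclib than in DMSO in the libraries of every line, and under conditioned medium only the E545K libraries lay above their DMSO libraries by more than the replicate spread. On the FPKM scale, which is per length, the highest levels of the list were those of ISG15, a ubiquitin-like protein tag, with 619.7 and 864 in H1047R cells in palbociclib, and of IFI27, with 831 and 819 in E545K cells in conditioned medium. RNA of whole cultures was measured, so more cells with the response and more RNA per responding cell cannot be told apart.

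**Figure D2:**
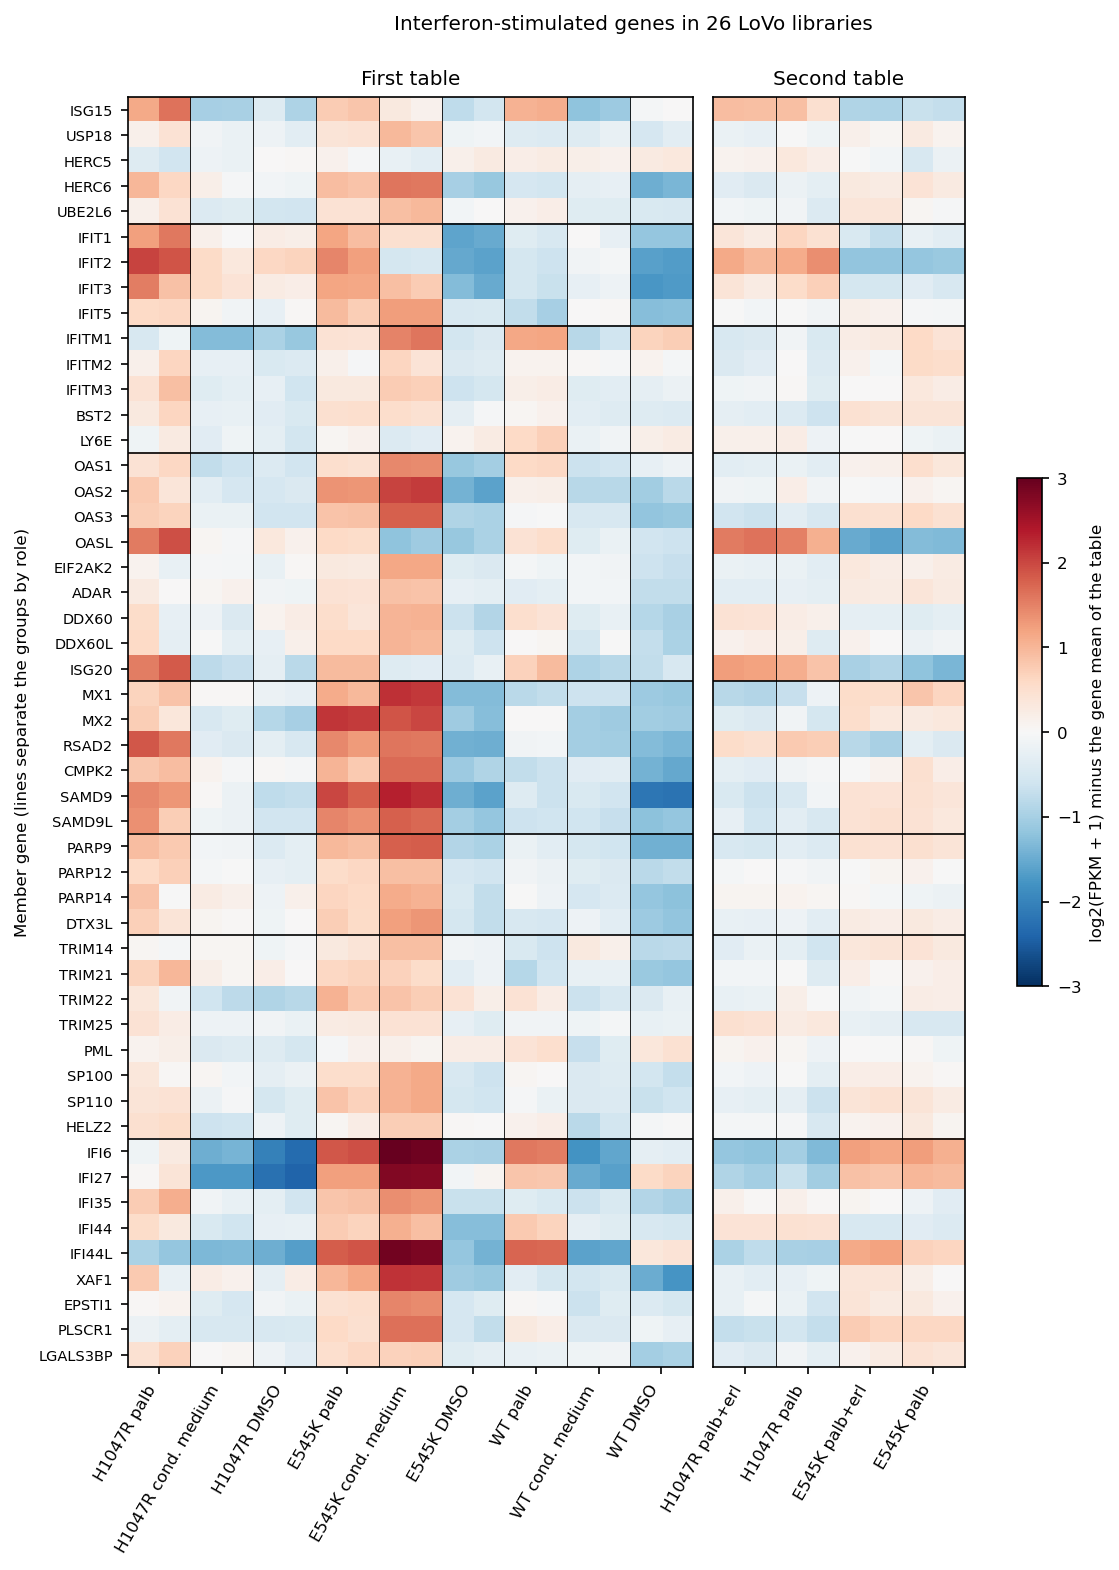
Each row is 1 of the 50 genes, ordered by role, and each column 1 library. Colour shows log2(FPKM + 1) minus the mean of that gene in its table, clipped at 3 in each direction, so levels of the first and second table are not compared. E545K cells in conditioned medium form the reddest block of the first table.

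Palbociclib raised the expression of most interferon-stimulated genes in every line. It raised 42 of the 50 in H1047R cells, 46 in E545K cells and 43 in WT cells, where 19.5%, 32.9% and 27.2% of all 12607 tested genes rose, by limma at an adjusted p below 0.05. It lowered 1 in H1047R cells, where 19.8% of all tested genes fell, and 0 in E545K and WT cells, where 19.3% and 6.77% fell. In both of the last lines limma also found 0 members lower at an unadjusted p under 0.05. The median log2 change of the 50 was 0.85 in H1047R, 1.25 in E545K and 0.65 in WT cells, against -0.03, 0.08 and 0.14 for all tested genes. In 35 genes the rise was called in all 3 lines, against 8% of all tested genes, and 0 genes fell in all 3, against 2.76%. Changes in WT cells are given relative to the median of all genes, as relative log2 changes, because that median lay 0.138 above 0, whereas p-values belong to the unshifted change.

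Of the 9 genes of the mixed interferon-induced group, 7 rose with palbociclib in H1047R cells, 9 in E545K and 8 in WT cells. IFI6, a small membrane protein reported to protect cells from death, had 59.6 and 78.0 FPKM in H1047R palbociclib libraries against 15.3 and 12.4 in H1047R DMSO libraries. The E545K values were 240.2 and 249 in palbociclib against 32.9 and 32.7 in DMSO, and the WT values 196 and 191 against 54.2 and 52.3. No palbociclib library overlapped with a DMSO library of its line (H1047R: log2 change 2.23, SE 0.12, adjusted p 6.71e-09. E545K: log2 change 2.86, SE 0.12, adjusted p 2.23e-10. WT: relative log2 change 1.70, SE 0.12, adjusted p 1.09e-07). IFI27, a mitochondrial protein, had 123 and 156 FPKM in H1047R cells in palbociclib against 24.5 and 21.7 in DMSO, its largest change with palbociclib among the lines (log2 change 2.53, SE 0.10, adjusted p 2.24e-10). In E545K cells it had 284 and 282 in palbociclib against 112 and 126 in DMSO (log2 change 1.24, SE 0.10, adjusted p 1.7e-07). In WT cells IFI27 started higher, at 178 and 191 FPKM in DMSO, and with 214 and 209.5 in palbociclib its change did not pass the test (relative log2 change 0.06, SE 0.10, adjusted p 0.136), although quantile normalization gave a call. IFI44L, a homologue of the antiviral protein IFI44, had 22.1 and 23.1 FPKM in E545K palbociclib libraries against 1.94 and 1.46 in E545K DMSO libraries (log2 change 3.13, SE 0.10, adjusted p 2.36e-11). It had only 2.40 and 1.95 in H1047R cells in palbociclib against 1.36 and 1.09 in DMSO (log2 change 0.51, SE 0.10, adjusted p 0.00141), and 21.0 and 20.8 in WT cells in palbociclib against 7.31 and 7.79 in DMSO (relative log2 change 1.22, SE 0.10, adjusted p 7.69e-07). IFI44, PLSCR1, a phospholipid scramblase, LGALS3BP, a secreted galectin-binding protein, and IFI35 rose in all 3 lines. XAF1, which counters the apoptosis inhibitor XIAP, and EPSTI1 rose in E545K and WT cells and were not called in H1047R cells, where XAF1 stood at 32.2 and 15.4 FPKM in palbociclib against 14.9 and 21.2 in DMSO.

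Genes for ISG15 and its conjugation divided. ISG15 itself had 619.7 and 864 FPKM in H1047R cells in palbociclib against 212 and 147 in DMSO (log2 change 2.04, SE 0.15, adjusted p 2.03e-07). Its E545K values were 477 and 496 in palbociclib against 166 and 189.5 in DMSO (log2 change 1.45, SE 0.15, adjusted p 2.34e-06), and its WT values 577 and 599.6 against 270.3 and 283 (relative log2 change 0.95, SE 0.15, adjusted p 0.000108). UBE2L6, the conjugating enzyme, and HERC6, a ligase of the same family as HERC5, rose in all 3 lines. USP18, which removes ISG15 and dampens the type I receptor, rose in H1047R cells, at 16.3 and 19.9 FPKM in palbociclib against 12.9 and 11.6 in DMSO, and in E545K cells, at 19.4 and 19.9 against 13.1 and 13.7. In WT cells USP18 had 10.9 and 10.8 FPKM in palbociclib against 9.97 and 11.4 in DMSO, and the groups overlapped. HERC5, the main ISG15 ligase in human cells, was the only one of the 50 that palbociclib lowered in H1047R cells, with 1.15 and 0.90 FPKM in palbociclib against 1.86 and 1.90 in DMSO (log2 change -0.51, SE 0.10, adjusted p 0.00105). It was not called in E545K or WT cells. The promoter window of HERC5 holds 3 ISRE matches.

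All 4 IFIT genes, whose products bind viral RNA, rose with palbociclib in every line. IFIT2 had 70.7 and 64.2 FPKM in H1047R cells in palbociclib against 26.2 and 27.3 in DMSO (log2 change 1.30, SE 0.09, adjusted p 1.63e-07), and 47.4 and 40.3 in E545K cells in palbociclib against 5.13 and 4.78 in DMSO (log2 change 2.91, SE 0.09, adjusted p 2.36e-11). WT cells had 11.3 and 10.5 in palbociclib against 4.73 and 4.49 in DMSO (relative log2 change 0.94, SE 0.09, adjusted p 2.48e-06). IFIT1, which binds RNA whose cap lacks methylation, had 47.8 and 62.0 FPKM in H1047R cells in palbociclib against 23.6 and 22.8 in DMSO, and 46.1 and 38.9 in E545K cells against 6.02 and 6.33 in DMSO. E545K libraries lay below H1047R libraries in both media, with the wider gap in DMSO, and the log2 changes were 1.20 in H1047R and 2.60 in E545K cells. In WT cells IFIT1 had 15.4 and 14.0 FPKM in palbociclib against 8.40 and 8.42 in DMSO (relative log2 change 0.60, SE 0.12, adjusted p 0.000277). Among the membrane-bound factors all 5 rose in H1047R, 4 in E545K and 4 in WT cells. IFITM1 had 115 and 148 FPKM in H1047R cells in palbociclib against 83.7 and 72.9 in DMSO (log2 change 0.73, SE 0.11, adjusted p 0.000122), 218 and 215 in E545K cells against 111 and 119 in DMSO, and 365 and 369 in WT cells against 259 and 271 in DMSO, the highest of the 3 lines. BST2, the virus tether, and IFITM3 rose in all 3 lines. LY6E, a membrane-anchored protein, did not pass in E545K cells, nor IFITM2 in WT cells. IFITM1, IFITM2 and IFITM3 are neighbours of related sequence, so some reads may have been divided between them.

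Of the 9 genes of RNA sensing, editing and decay, 6 rose with palbociclib in H1047R cells and all 9 in E545K and WT cells. OAS3, which makes the oligoadenylates that activate RNase L, had 97.3 and 92.5 FPKM in H1047R cells in palbociclib against 39.1 and 38.9 in DMSO (log2 change 1.26, SE 0.06, adjusted p 1.01e-09). In E545K cells it had 106 and 109 against 30.7 and 29.5 in DMSO, and in WT cells 57.3 and 57.7 against 25.0 and 26.1 in DMSO. OAS1 had 65.8 and 75.6 FPKM in H1047R, 69.2 and 67.0 in E545K and 73.5 and 75.2 in WT cells in palbociclib, against 36.2 and 32.3, 21.4 and 23.3 and 41.0 and 43.7 in DMSO. Under palbociclib the H1047R libraries of OAS1 overlapped with those of both other lines, while E545K stayed below WT. OASL, which enhances RNA sensing by RIG-I, had 239 and 313 FPKM in H1047R cells in palbociclib, more than any other group of the first table, against 101 and 88.0 in DMSO (log2 change 1.53, SE 0.11, adjusted p 1.87e-07). ISG20, an RNA exonuclease, had 32.0 and 39.5 in H1047R cells in palbociclib against 8.36 and 5.47 in DMSO (log2 change 2.23, SE 0.15, adjusted p 9.99e-08), and 17.3 and 21.0 in WT cells against 5.84 and 7.19 in DMSO. EIF2AK2 (the kinase PKR), DDX60 and DDX60L were the 3 that did not pass in H1047R cells. DDX60 had 18.2 and 10.0 FPKM in the H1047R palbociclib libraries and 13.0 and 14.2 in the H1047R DMSO libraries, so the palbociclib replicates lay on either side of DMSO.

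All 6 genes of cytoplasmic restriction and nucleotide enzymes rose in every line. SAMD9, a virus restriction factor, had 17.4 and 16.0 FPKM in H1047R cells in palbociclib against 2.98 and 3.09 in DMSO (log2 change 2.13, SE 0.11, adjusted p 7.58e-09). In E545K cells it had 26.2 and 22.5 against 1.47 and 1.23 in DMSO, the largest change of any member under palbociclib on the log2(FPKM + 1) scale (log2 change 3.43, SE 0.11, adjusted p 2.36e-11), and in WT cells 4.21 and 3.35 against 0.50 and 0.46 in DMSO (relative log2 change 1.55, SE 0.11, adjusted p 2.01e-07). MX1, a dynamin-like GTPase that traps viral ribonucleoprotein, had 73.1 and 83.2 FPKM in H1047R cells in palbociclib against 39.9 and 38.5 in DMSO (log2 change 0.98, SE 0.07, adjusted p 1.83e-07). It had 99.7 and 89.8 in E545K cells against 17.9 and 17.9 in DMSO (log2 change 2.34, SE 0.07, adjusted p 2.01e-11) and 25.6 and 27.1 in WT cells against 20.7 and 20.2 in DMSO (relative log2 change 0.21, SE 0.07, adjusted p 0.00199), a WT call lost after median-centring. MX2 was low in DMSO everywhere and reached 10.4 and 9.99 FPKM in E545K cells in palbociclib, against 0.21 and 0.05 in E545K cells in DMSO (log2 change 3.31, SE 0.12, adjusted p 9.53e-11). With a pseudocount of 0.1 FPKM the log2 change was 5.58 for MX2 and 4.08 for SAMD9 in E545K cells, so their order depends on the pseudocount. RSAD2, or viperin, which makes a chain-terminating nucleotide, had 25.1 and 20.4 FPKM in H1047R cells in palbociclib against 4.83 and 4.17 in DMSO (log2 change 2.11, SE 0.10, adjusted p 2.82e-09). RSAD2 and CMPK2, a nucleotide kinase, overlap on chromosome 2 (6840553 to 6866635 for CMPK2 and 6865885 to 6898239 for RSAD2), so a share of reads may count for either.

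The 4 genes of ADP-ribosylation, PARP9, its partner DTX3L, PARP12 and PARP14, rose in E545K and WT cells, and all except PARP14 in H1047R cells. PARP9 had 34.3 and 31.1 FPKM in H1047R cells in palbociclib against 13.0 and 14.1 in DMSO, 35.5 and 33.8 in E545K cells against 9.02 and 8.60, and 15.3 and 13.9 in WT cells against 5.87 and 5.79. PARP14 stood at 33.7 and 18.0 FPKM in H1047R palbociclib libraries, 1 of them within the range of the H1047R DMSO libraries (16.2 and 20.4). Of the 8 TRIM, nuclear body and coactivator genes 7 rose in H1047R, 6 in E545K and 5 in WT cells. TRIM21, an antibody receptor and ubiquitin ligase, had 15.6 and 20.0 FPKM in H1047R cells in palbociclib against 11.1 and 9.47 in DMSO. PML, the scaffold of nuclear bodies, had 23.4 and 24.6 in H1047R cells in palbociclib against 16.4 and 14.7 in DMSO, and did not pass in E545K or WT cells. HELZ2, a nuclear receptor coactivator, likewise passed in H1047R cells alone, at 16.8 and 17.9 FPKM in palbociclib against 10.7 and 8.95 in DMSO.

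The 2 H1047R palbociclib libraries of the first table differed from each other more than those of other groups. The SD of the 50 genes between them was 0.278 on the log2 scale, against 0.0618 to 0.145 in the other groups of that table. The tests used a spread pooled over all groups, so p-values and SE for H1047R cells in palbociclib do not reflect this wider spread in full. The proliferation gene MKI67 had 31.7 and 16.7 FPKM in them, against 55.5 and 61.2 in H1047R DMSO libraries. Replicate 1 was the higher for 25 of the 50 genes, DDX60, XAF1 and PARP14 among them, and replicate 2 was higher for ISG15, IFI27, IFI6 and OASL. What sets these replicates apart was not tested. Leaving out replicate 1 or 2 of H1047R in palbociclib or DMSO left 39 to 46 of the 50 higher with palbociclib.

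**Figure D3:**
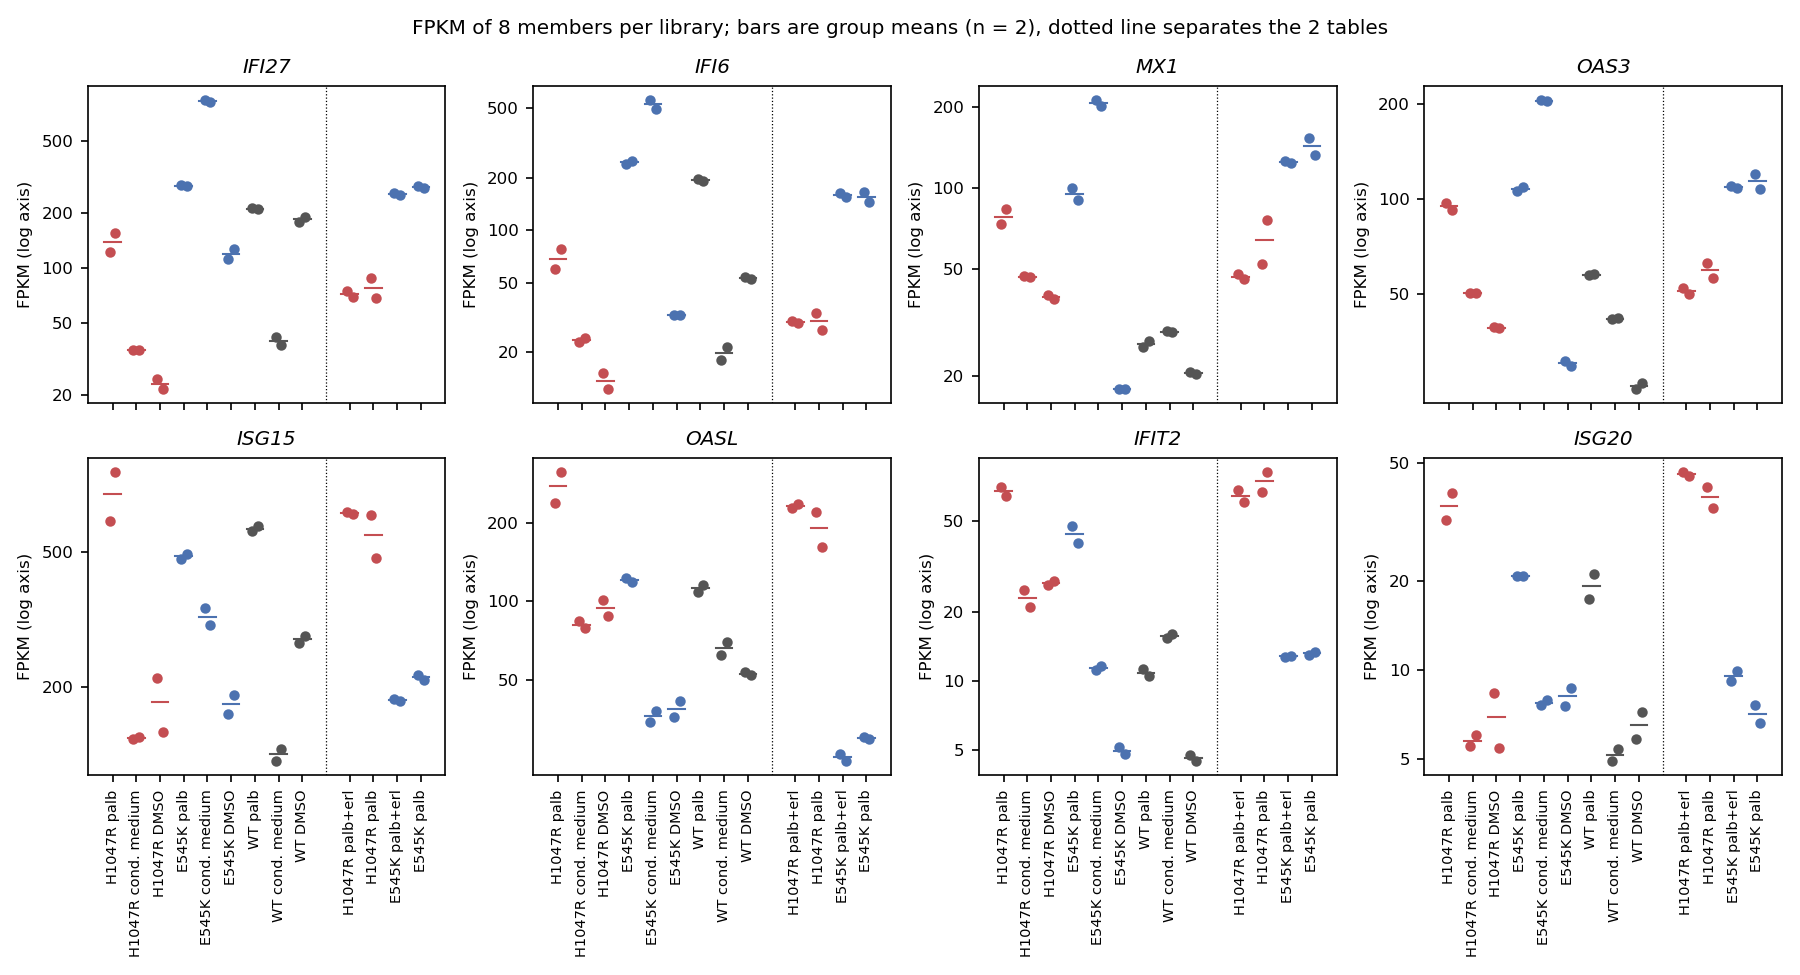
FPKM of 8 members in every library on a log axis, with a dotted line between the first and the second table. Points are the 2 libraries of a group and bars their mean. In the first table palbociclib points lie above the DMSO points of their line for all genes shown. E545K conditioned-medium points are the highest of that table for IFI27, IFI6, MX1 and OAS3 and not for ISG15, OASL, IFIT2 and ISG20.

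How the palbociclib response differed between the lines was tested on the difference itself. A larger response is a larger change from DMSO and not always a higher level, because DMSO levels differed too. IFI27, for example, stayed lower in H1047R than in WT cells in palbociclib. In E545K cells the response was larger than in WT cells for 31 of the 50 genes and smaller for 1, LY6E, against 10.9% and 14.7% of all tested genes. MX2, MX1, SAMD9L, IFIT1 and IFIT2 differed the most, by log2 2.24, SE 0.17, adjusted p 1.63e-06 for MX2 and 1.99, SE 0.10, adjusted p 2.75e-08 for MX1. OAS1 differed by 0.77, IFI6 by 1.02 and IFI27 by 1.04, while ISG15 did not pass (log2 change 0.36, SE 0.21, adjusted p 0.236). In H1047R cells the response was larger than in WT cells for 14 and smaller for 5, against 5.16% and 17.4% of all tested genes. IFI27 differed the most (relative log2 change 2.50, SE 0.14, adjusted p 7.54e-07), followed by SAMD9L, ISG15, RSAD2 and IFI35 with relative log2 differences of 1.20, 1.12, 1.03 and 1.00. DDX60, IFI44L, IFI44, EIF2AK2 and HERC5 responded less in H1047R than in WT cells, with relative log2 differences of -1.20, -0.68, -0.42, -0.36 and -0.27. Of these the HERC5 call was lost in 8 of 13 alternatives and the EIF2AK2 call in 6 of 13. IFI6, IFIT1, OAS1 and IFITM1 did not pass in this comparison. The H1047R counts moved with single libraries, to 22 and 11 without H1047R palbociclib replicate 1, to 7 and 3 without H1047R DMSO replicate 2, to 8 and 3 without WT DMSO replicate 2 and to 9 and 3 without WT palbociclib replicate 1, and median-centring gave 24 and 3. The 1 gene lower in E545K cells was lost under several settings.

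Conditioned medium of senescent cells gave 3 different pictures. In E545K cells it raised 45 of the 50 genes and lowered 2, LY6E and HERC5, against 32.4% and 24.9% of all tested genes. In H1047R cells it raised 10 and lowered 2, HELZ2 and IFI44, against 8.65% and 5.97% of all tested genes, so 20% and 4% of the 50 moved. In WT cells it raised 25 and lowered 10, against 51.9% and 18.6%, so the members' shares of 50% and 20% were close to the background. The median log2 change of the 50 was 0.13 in H1047R cells, 1.70 in E545K cells and 0.26 in WT cells, against 0.01, 0.05 and 0.29 for all tested genes. In all 3 lines OAS3, MX1, SAMD9, PARP9, PARP12 and LGALS3BP rose, 6 of 50 against 5.71% of all tested genes, and by limma 0 of the 50 fell in all 3, against 2.65%. The WT counts and those over all 3 lines rest on the WT conditioned-medium libraries that stood apart. The MX1 call in H1047R cells was lost in 6 of 9 alternatives. The conditioned-medium response was larger in E545K than in WT cells for 42 genes and smaller for 2, against 10% and 37.1% of all tested genes. It was larger in E545K than in H1047R cells for 44 and smaller for 1, against 18.8% and 15.1%, a comparison that does not use the WT conditioned-medium libraries. Both comparisons use the E545K DMSO libraries, for which the limit given above holds. Both of these differences were added after the data were seen.

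In E545K cells the largest changes under conditioned medium on the log2(FPKM + 1) scale were in IFI44L, IFI6, SAMD9, OAS2 and MX1. That scale understates the change of MX2 and SAMD9L, which were low in DMSO: MX2 had 8.50 and 9.21 FPKM in conditioned medium against 0.21 and 0.05 in DMSO, and SAMD9L 7.51 and 7.10 against 0.21 and 0.10. IFI6 had 553 and 496 FPKM in E545K conditioned-medium libraries against 32.9 and 32.7 in E545K DMSO libraries (log2 change 3.96, SE 0.12, adjusted p 4.71e-12). IFI44L had 47.9 and 45.3 against 1.94 and 1.46 (log2 change 4.14, SE 0.10, adjusted p 8.62e-13), and MX1 211 and 201 against 17.9 and 17.9 (log2 change 3.45, SE 0.07, adjusted p 1.05e-13). In none of these did a conditioned-medium library come near a DMSO library. IFI27 had 831 and 819 FPKM in conditioned medium against 112 and 126 in DMSO (log2 change 2.78, SE 0.10, adjusted p 3.18e-11), the highest level of this gene in any group. OAS1 had 133 and 131 against 21.4 and 23.3 in DMSO (log2 change 2.51, SE 0.08, adjusted p 1.16e-11), OAS3 had 205 and 204 against 30.7 and 29.5, and OAS2 had 54.0 and 57.4 against 4.07 and 3.44. IFITM1 had 459 and 492 FPKM in conditioned medium against 111 and 119 in DMSO (log2 change 2.04, SE 0.11, adjusted p 2.03e-09). Every gene of the IFIT, cytoplasmic restriction, ADP-ribosylation and mixed groups rose. ISG15 rose less than most, at 342 and 304 FPKM in conditioned medium against 166 and 189.5 in DMSO (log2 change 0.86, SE 0.15, adjusted p 0.000214), and IFIT1 had 28.1 and 28.1 against 6.02 and 6.33 (log2 change 2.02, SE 0.12, adjusted p 4.59e-09). OASL had 34.6 and 38.1 in conditioned medium against 36.2 and 41.5 in DMSO, ISG20 7.62 and 7.91 against 7.56 and 8.72, and PML 24.4 and 23.1 against 25.3 and 25.5. These 3 did not pass, and the libraries of OASL and ISG20 overlapped. LY6E had 62.0 and 64.7 FPKM in conditioned medium against 89.1 and 97.5 in DMSO (log2 change -0.55, SE 0.11, adjusted p 0.000851), and HERC5 1.43 and 1.26 against 2.14 and 2.40 (log2 change -0.48, SE 0.10, adjusted p 0.000696).

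In H1047R cells the changes under conditioned medium were small. IFI6 had 23.0 and 24.2 FPKM in H1047R conditioned-medium libraries against 15.3 and 12.4 in H1047R DMSO libraries (log2 change 0.74, SE 0.12, adjusted p 0.00112), and IFI27 had 35.5 and 35.4 against 24.5 and 21.7 (log2 change 0.60, SE 0.10, adjusted p 0.00145). SAMD9 had 5.95 and 4.94 against 2.98 and 3.09, MX2 0.84 and 0.99 against 0.42 and 0.28, and OAS3 50.2 and 50.4 against 39.1 and 38.9. Those 5 were the largest called rises on the log2(FPKM + 1) scale, and each stayed below its level in H1047R cells in palbociclib. ISG15 had 141 and 142 in conditioned medium against 212 and 147 in DMSO, and its change did not pass (log2 change -0.32, SE 0.15, adjusted p 0.177), nor did those of IFIT1, OAS1 and IFITM1. None of the ISG15-conjugation, IFIT and membrane genes was called, and over all 50 genes 16 were higher and 7 lower at an unadjusted p under 0.05 by limma. The unadjusted share of all tested genes was not computed, so these 2 counts have no background. HELZ2 had 7.33 and 7.46 FPKM in conditioned medium against 10.7 and 8.95 in DMSO, and IFI44 22.1 and 20.1 against 25.9 and 26.3. Leaving out single H1047R libraries of either group gave 4 to 8 genes higher and 0 to 2 lower in place of 10 and 2: 4 higher without conditioned-medium replicate 2, 5 without conditioned-medium replicate 1 and 6 without DMSO replicate 2, and 0 lower without DMSO replicate 1 or either conditioned-medium replicate.

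The libraries labelled WT in conditioned medium showed both directions. IFI27 had 41.6 and 37.9 FPKM in WT conditioned-medium libraries against 178 and 191 in WT DMSO libraries (relative log2 change -2.48, SE 0.10, adjusted p 1.75e-10). IFITM1 had 89.8 and 106 against 259 and 271 (relative log2 change -1.72, SE 0.11, adjusted p 2.27e-08), and ISG15 121 and 131 against 270.3 and 283 (relative log2 change -1.42, SE 0.15, adjusted p 1.01e-05). IFI6 had 18.0 and 21.5 against 54.2 and 52.3 (relative log2 change -1.68, SE 0.12, adjusted p 7.36e-08), and IFI44L 1.15 and 1.23 against 7.31 and 7.79 (relative log2 change -2.26, SE 0.10, adjusted p 7.06e-10). In all of these the conditioned-medium libraries lay below the DMSO libraries and nearer to the H1047R levels given above. OAS1, PML, HELZ2, LY6E and PLSCR1 fell as well. SAMD9, IFIT2, IFIT3, IFIT5 and HERC6 rose the most. IFIT2 had 15.5 and 16.1 FPKM in conditioned medium against 4.73 and 4.49 in DMSO (relative log2 change 1.29, SE 0.09, adjusted p 2.5e-09), and SAMD9 had 3.89 and 3.54 against 0.50 and 0.46 (relative log2 change 1.38, SE 0.11, adjusted p 8.38e-09). IFIT1 (relative log2 change 0.73, SE 0.12, adjusted p 1.68e-06) and MX1 (relative log2 change 0.20, SE 0.07, adjusted p 2.12e-05) rose as well, the MX1 call being lost after median-centring. Of the 9 genes called in opposite directions in different lines, ISG15, IFITM1, OAS1, IFI6, IFI27, IFI44L, PLSCR1 and HELZ2 fell in WT and rose in E545K cells, HELZ2 fell in H1047R cells too, and IFI44 fell in H1047R and rose in E545K cells. The share of all tested genes with opposite calls was not computed, so the 9 only describe the members. The count of falls depended on scaling, 10 as deposited, 17 after quantile normalization and 20 after median-centring.

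**Figure D4:**
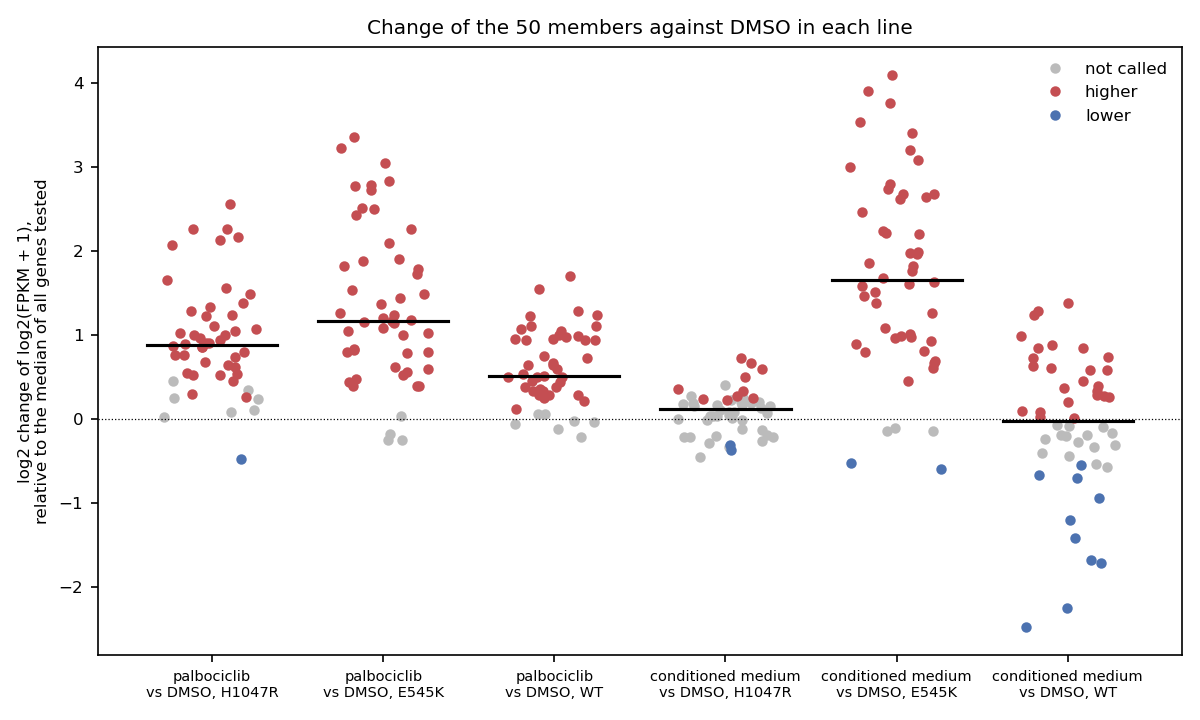
Each point is 1 of the 50 genes, as log2 change minus the median change of all tested genes, for palbociclib and for conditioned medium against DMSO in each line. Red points were called higher, blue lower and grey not called, and black lines mark the median of the 50. E545K cells in conditioned medium sit highest and WT cells in conditioned medium spread on both sides of 0.

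Palbociclib was also set directly against conditioned medium, without the DMSO libraries. In H1047R cells 40 of the 50 genes were higher in palbociclib and 1, HERC5, lower, against 15.2% and 17.6% of all tested genes. ISG20 had 32.0 and 39.5 FPKM in H1047R cells in palbociclib against 5.54 and 6.02 in conditioned medium (log2 change 2.43, SE 0.15, adjusted p 4.22e-08), and ISG15 had 619.7 and 864 against 141 and 142 (log2 change 2.37, SE 0.15, adjusted p 5e-08). RSAD2, IFI27 and OASL followed, with log2 changes of 2.11, 1.94 and 1.73. In E545K cells the order was the other way for most: 7 genes were higher and 30 lower in palbociclib than in conditioned medium, against 13% and 7.13% of all tested genes. IFI27 (-1.54), IFITM1 (-1.13), PLSCR1 (-1.12), MX1 (-1.12) and IFI6 (-1.09) had the largest falls on the log2 scale, and OAS1 fell too. IFIT2, OASL, ISG20, ISG15 and IFIT1 were higher in palbociclib in these cells. IFIT2 had 47.4 and 40.3 FPKM in E545K palbociclib libraries against 11.2 and 11.6 in E545K conditioned-medium libraries (log2 change 1.85, SE 0.09, adjusted p 6.74e-09), and OASL had 123 and 118 against 34.6 and 38.1 (log2 change 1.71, SE 0.11, adjusted p 8.64e-08). The 7 higher genes were 14% of the 50, near the share of all tested genes, and numbered 5 without any 1 of the 4 libraries. The ISG15 call was lost without either palbociclib library or 1 of the conditioned-medium libraries, with adjusted p up to 0.112. In WT cells 27 were higher and 9 lower in palbociclib than in conditioned medium, against 21% and 40.5% of all tested genes. IFI44L, IFI6, IFI27, ISG15 and IFITM1 led, with relative log2 changes of 3.47, 3.38, 2.53, 2.36 and 2.04, and IFIT5, TRIM14, IFIT2, TRIM21 and IFIT3 were lower, at -0.75 for IFIT5. The WT falls numbered 3 after quantile normalization or median-centring and 5 without replicate 1 of WT palbociclib or of WT conditioned medium, and this comparison rests on the WT conditioned-medium libraries that stood apart.

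Before any drug, the levels of many of these genes differed between the mutant lines and WT cells. In E545K cells in DMSO 19 of the 50 were higher and 14 lower than in WT cells in DMSO, against 48.4% and 10.4% of all tested genes. In H1047R cells in DMSO 29 were higher and 12 lower, against 49.9% and 17.5%. The H1047R counts were thus near the background, while the E545K count was below it for higher genes and above it for lower genes. IFI27 had 24.5 and 21.7 FPKM in H1047R, 112 and 126 in E545K and 178 and 191 in WT cells (H1047R against WT: relative log2 change -3.21, SE 0.10, adjusted p 2.58e-11. E545K against WT: relative log2 change -0.88, SE 0.10, adjusted p 7.91e-05). IFI44L, IFI6 and IFITM1 were also lower in both mutant lines, as were ISG15 and OAS1. IFITM1 had 83.7 and 72.9 FPKM in H1047R and 111 and 119 in E545K cells, against 259 and 271 in WT cells. The IFIT genes went the other way in H1047R cells, where IFIT2 had 26.2 and 27.3 FPKM against 4.73 and 4.49 in WT cells (relative log2 change 2.05, SE 0.09, adjusted p 1.5e-10) and IFIT3 had 37.9 and 36.6 against 8.84 and 9.15 (relative log2 change 1.68, SE 0.15, adjusted p 3.42e-08). XAF1, CMPK2 and SAMD9 followed, and IFIT1 (relative log2 change 1.10, SE 0.12, adjusted p 1.11e-07) and MX1 (relative log2 change 0.64, SE 0.07, adjusted p 5.41e-08) were also higher in H1047R than in WT cells. In E545K cells IFIT1 (relative log2 change -0.64, SE 0.12, adjusted p 0.00936) and MX1 (relative log2 change -0.44, SE 0.07, adjusted p 0.0386) were lower than in WT cells, the MX1 call being lost without any 1 of the 4 libraries. TRIM21, IFIT5, LGALS3BP, SAMD9 and TRIM14 were the most increased in E545K cells, at relative log2 changes of 0.66 for TRIM21 and 0.53 for IFIT5. The number of genes higher in E545K cells fell to 9 after quantile normalization and 6 after median-centring. The median of all genes was shifted by 0.252 for E545K and 0.261 for H1047R against WT on the log2 scale.

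Under palbociclib H1047R and E545K cells differed in the levels of many of these genes, and this could be measured in both tables. Of the 50 genes, 7 were higher and 20 lower in H1047R than in E545K cells in the first table, against 4.75% and 11.5% of all tested genes. There were 13 higher and 29 lower in the second table, against 21.5% and 30.1% of its 12463 tested genes, so the higher count there was near the background. The tables were fitted apart, and the hours in palbociclib alone are stated for the first only. MKI67 in palbociclib had 10.8 and 11.2 FPKM in H1047R and 44.6 and 45.0 in E545K cells in the second table. In the first table it had 31.7 and 16.7 in H1047R and 34.8 and 37.9 in E545K cells, and its part in the line difference was not tested. The 6 genes higher in H1047R cells in both tables were ISG15, IFIT1, IFIT2, OASL, ISG20 and RSAD2, against 2.56% of the 12314 genes tested in both. The 15 genes lower in both, against 6.12% of all genes tested in both, were IFITM1, OAS3, EIF2AK2, ADAR, MX1, MX2, SAMD9, TRIM14, SP110, IFI6, IFI27, IFI44L, XAF1, EPSTI1 and PLSCR1. HERC5, HELZ2 and IFI44 were called in opposite directions in the tables, and the matching share over all genes was not computed. Across the 50 genes the differences of the first and second table correlated at Pearson 0.664 and Spearman 0.515, with the same sign in 36, as a description of genes that share libraries.

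OASL had 239 and 313 FPKM in H1047R and 123 and 118 in E545K cells in the first table (relative log2 change 1.27, SE 0.11, adjusted p 4.89e-06). In the second it had 221 and 161 in H1047R and 30.2 and 29.7 in E545K cells (log2 change 2.61, SE 0.12, adjusted p 1.62e-06). IFIT2 had 70.7 and 64.2 FPKM in H1047R and 47.4 and 40.3 in E545K cells in the first table (relative log2 change 0.71, SE 0.09, adjusted p 0.000499). In neither gene did the 2 lines overlap, and for both the gap was wider in the second table, where IFIT2 had 67.2 and 82.0 FPKM in H1047R and 13.0 and 13.4 in E545K cells (log2 change 2.40, SE 0.09, adjusted p 6.16e-07). ISG20 had 41.3 and 35.2 FPKM in H1047R and 7.63 and 6.63 in E545K cells in the second table (log2 change 2.27, SE 0.09, adjusted p 6.52e-07), and ISG15 had 646 and 479.8 in H1047R and 217 and 209 in E545K cells (log2 change 1.38, SE 0.11, adjusted p 3.07e-05). In the first table ISG15 had an adjusted p of 0.0178, which was lost without H1047R palbociclib replicate 2 or either E545K palbociclib library, and IFIT1 one of 0.0495, which was lost under most settings.

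IFI6 marked the opposite pattern. It had 59.6 and 78.0 FPKM in H1047R and 240.2 and 249 in E545K cells in the first table (relative log2 change -1.73, SE 0.12, adjusted p 6.53e-08), and 33.4 and 26.9 in H1047R and 165 and 144 in E545K cells in the second (log2 change -2.33, SE 0.10, adjusted p 1.13e-06). IFI44L had 2.40 and 1.95 FPKM in H1047R and 22.1 and 23.1 in E545K cells in the first table (relative log2 change -2.80, SE 0.10, adjusted p 2.24e-10), and 3.03 and 2.99 in H1047R and 11.8 and 11.6 in E545K cells in the second (log2 change -1.66, SE 0.08, adjusted p 1.86e-06). For these 2 genes the lines stood apart in every library of both tables. IFI27 followed with 88.0 and 68.2 FPKM in H1047R and 281 and 273 in E545K cells in the second table (log2 change -1.83, SE 0.10, adjusted p 4.07e-06). MX1 had 52.0 and 76.2 in H1047R and 153 and 133 in E545K cells there (log2 change -1.17, SE 0.15, adjusted p 0.000335), IFITM1 had 102 and 79.8 in H1047R and 166 and 147 in E545K cells, and PLSCR1 had 51.1 and 45.9 in H1047R and 116 and 116 in E545K cells. OAS1 did not differ by the test in the first table (relative log2 change 0.15, SE 0.08, adjusted p 0.683) and was lower in H1047R cells in the second (log2 change -0.69, SE 0.07, adjusted p 8.55e-05). In the first table the count of genes lower in H1047R cells was 11 after median-centring, and 10 and 12 without replicates 1 and 2 of E545K palbociclib, with 4 higher in both cases.

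**Figure D5:**
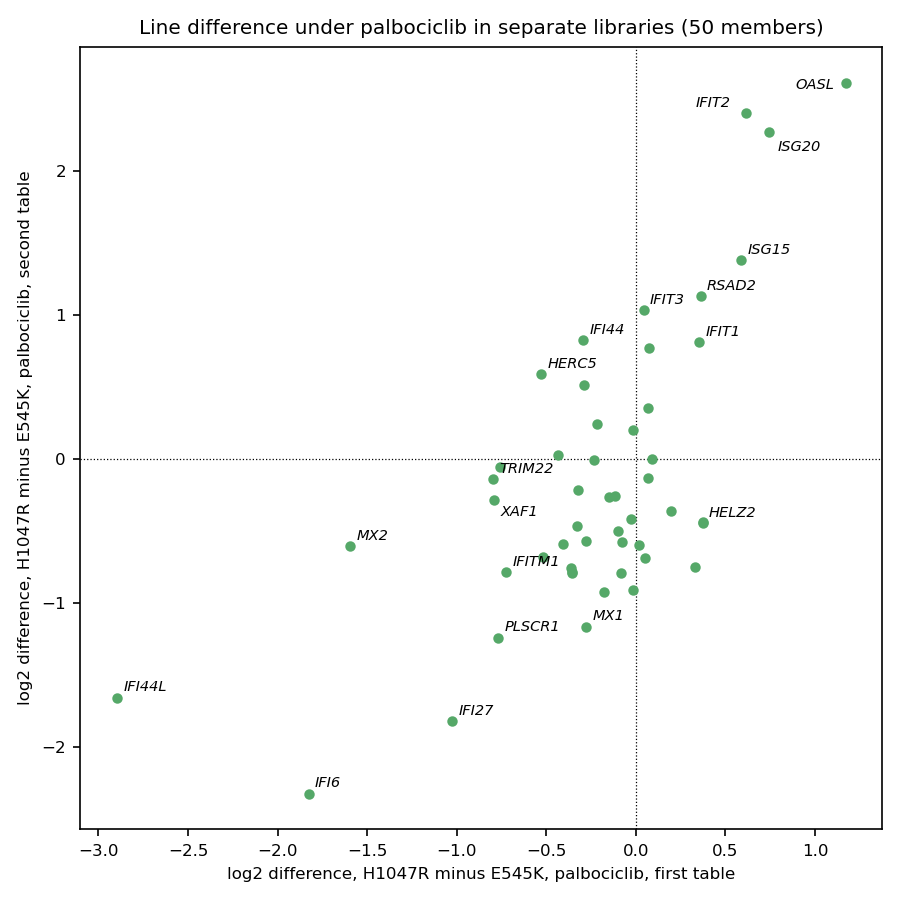
Each point is 1 of the 50 genes, with the log2 difference of H1047R minus E545K cells under palbociclib in the first table on the horizontal axis and in the second on the vertical axis. OASL, IFIT2, ISG20 and ISG15 lie toward the upper right and IFI6, IFI27 and IFI44L toward the lower left.

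Adding erlotinib to palbociclib left most of the 50 genes without a called change, in groups whose hours of treatment may differ. MKI67 had 5.53 and 5.29 FPKM in H1047R cells with both drugs against 10.8 and 11.2 with palbociclib alone, and 27.6 and 27.6 in E545K cells with both drugs against 44.6 and 45.0 with palbociclib alone, and its part in the result was not tested. In H1047R cells 2 rose, DDX60 and TRIM25, and 1 fell, IFIT3, against 3.01% and 6.35% of all tested genes. In E545K cells 6 rose and 3 fell, against 7.1% and 9.11%, so both lines were near the background. IFI44L had 16.5 and 17.5 FPKM in E545K cells with erlotinib and palbociclib against 11.8 and 11.6 with palbociclib alone (log2 change 0.51, SE 0.08, adjusted p 0.0047). ISG20, UBE2L6, IFI35, XAF1 and TRIM25 also rose in E545K cells, by log2 0.38 for ISG20 and 0.35 for UBE2L6. RSAD2 had 7.77 and 7.04 in E545K cells with both drugs against 11.7 and 10.6 with palbociclib alone (log2 change -0.53, SE 0.07, adjusted p 0.00298), and IFITM2 and OAS1 fell by less. ISG15 had 659 and 651 FPKM in H1047R cells with both drugs and 646 and 479.8 with palbociclib alone, and 184 and 181 in E545K cells with both drugs and 217 and 209 with palbociclib alone, with no call in either line. IFI27, IFI6, IFIT1, MX1 and IFITM1 were not called in either line, nor OAS1 in H1047R cells. The effect of erlotinib differed between the lines by the test in 0 genes, against 0.899% and 1.27% of all tested genes, while 5 were higher and 4 lower in H1047R than in E545K cells at an unadjusted p under 0.05 by limma. For the unadjusted counts no share of all tested genes was computed. These counts depended on single libraries. Without replicate 1 of H1047R palbociclib in the second table, 17 members rose and 4 fell in H1047R cells, and 8 and 3 differed between the lines. Without replicate 2 of that group 7 fell in H1047R cells, without either H1047R erlotinib library 0 were called, and without E545K palbociclib replicate 2 or E545K erlotinib replicate 2 none of the 6 rises in E545K cells was called, against 1 without E545K erlotinib replicate 1.

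The genes that make, receive and transmit interferon were examined beside the 50. Of 3 interferon genes that could be tested, IFNB1 and IFNL1 rose with palbociclib in all 3 lines, and IFNL3 was the third. In the first table all 3 reached 1 FPKM only in palbociclib libraries. They thus passed the filter through the condition in which they were high, which limits what their calls show for either medium. With conditioned medium none of the 3 passed, and the adjusted p of IFNB1 was 0.303 in H1047R, 0.739 in E545K and 0.719 in WT cells. IFNB1, the type I interferon of epithelial and stromal cells, had 2.91 and 3.15 FPKM in H1047R cells in palbociclib against 0.42 and 0.41 in DMSO (log2 change 1.51, SE 0.12, adjusted p 2.66e-07), and 0.90 and 1.34 in E545K cells in palbociclib (adjusted p 2.95e-06), while it was listed at 0 in both E545K DMSO libraries. In WT cells it had 0.30 and 0.29 in palbociclib and 0.07 and 0 in DMSO (relative log2 change 0.19, SE 0.12, adjusted p 0.0419). IFNL1, a type III interferon, had 3.24 and 4.55 FPKM in H1047R cells in palbociclib against 0.90 and 0.54 in DMSO (log2 change 1.50, SE 0.15, adjusted p 4.81e-06), and was higher there than in E545K cells in palbociclib, at 1.06 and 0.77. In E545K cells in conditioned medium, the group in which most of the 50 were highest, IFNB1 was listed at 0 and 0.07 and IFNL1 at 0.08 and 0.07 FPKM. Levels this low rest on few fragments.

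IRF9, the DNA-binding subunit of the complex that binds the ISRE, had 9.89 and 10.4 FPKM in H1047R palbociclib libraries against 4.51 and 4.59 in H1047R DMSO (log2 change 1.01, SE 0.09, adjusted p 8.97e-07), and 14.9 and 14.0 in E545K palbociclib against 6.39 and 6.96 in E545K DMSO (log2 change 1.01, SE 0.09, adjusted p 3.51e-07). In WT cells it had 8.27 and 7.58 in palbociclib against 6.46 and 5.81 in DMSO (relative log2 change 0.18, SE 0.09, adjusted p 0.00999), a call lost in 4 of 9 alternatives. IRF9 had 33.2 and 37.8 FPKM in E545K cells in conditioned medium against 6.39 and 6.96 in DMSO (log2 change 2.25, SE 0.09, adjusted p 8.3e-11). It had 3.77 and 3.61 in H1047R cells in conditioned medium against 4.51 and 4.59 in DMSO, without a call. In the libraries labelled WT in conditioned medium, which stood apart, IRF9 was lower, at 3.90 and 4.00 against 6.46 and 5.81 in WT DMSO (relative log2 change -0.82, SE 0.09, adjusted p 6.96e-05). IRF7, which amplifies interferon production, likewise rose in E545K cells, with 29.1 and 30.5 FPKM in conditioned medium against 9.62 and 10.4 in DMSO. It was lower in the libraries labelled WT in conditioned medium, at 2.93 and 3.56 against 12.5 and 13.0 in WT DMSO. IRF9 was lower in H1047R than in E545K cells under palbociclib in both tables, at a log2 difference of -1.52 in the second, whereas IRF1, a transcription activator of the same family, was higher in H1047R cells (log2 change 0.87, SE 0.06, adjusted p 1.48e-05). IRF1 had 53.0 and 62.6 FPKM in H1047R palbociclib libraries, its highest level, against 21.7 and 22.1 in H1047R DMSO. With erlotinib IRF9 was not called in either line.

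For the lists that follow, palbociclib raised 19.5% of all tested genes in H1047R, 32.9% in E545K and 27.2% in WT cells. Of 9 sensors and adaptors of nucleic acid it raised 5 in H1047R (55.6%), 7 in E545K (77.8%) and 7 in WT cells (77.8%) and lowered 1, CGAS, in WT. DDX58, which encodes the RNA sensor RIG-I, had 70.2 and 52.2 FPKM in H1047R cells in palbociclib against 28.7 and 31.5 in DMSO (log2 change 0.99, SE 0.12, adjusted p 2.15e-05), and 46.9 and 43.5 in E545K cells against 11.3 and 9.64 in DMSO (log2 change 2.01, SE 0.12, adjusted p 8.44e-09). Like IFIT2 and OASL, it was higher in palbociclib than in conditioned medium in E545K cells (log2 change 0.48, SE 0.12, adjusted p 0.00877) and higher in H1047R than in E545K cells under palbociclib in both tables, with log2 differences of 0.52 (relative) and 0.92. Of 12 targets that lean to interferon gamma, 10 rose with palbociclib in H1047R (83.3%), 11 in E545K (91.7%) and 10 in WT cells (83.3%), and 1, GBP2, fell in E545K. Of the 9 receptor and kinase genes 3 rose in H1047R (33.3%), 3 in E545K (33.3%) and 4 in WT cells (44.4%) with palbociclib and 2 fell in E545K (22.2%, against 19.3% of all tested genes), so the E545K shares were at the background. IFNAR1, a chain of the type I receptor, stood at 12.1 and 12.1 FPKM in the libraries labelled WT in conditioned medium, which stood apart. It stood at 5.23 and 4.94 in WT cells in palbociclib and 4.21 and 3.99 in WT cells in DMSO, whereas all groups of the mutant lines ranged from 8.95 to 14.9 FPKM. Conditioned medium raised 8 of the 9 sensors in E545K cells (88.9%), against 32.4% of all tested genes.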

How the data were processed

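Poly(A)-enriched RNA of 26 LoVo libraries was sequenced. The authors deposited 2 tables of FPKM per gene, per the file headers. The submitters' processing notes list HISAT2 2.1.0, Bowtie2 2.3.4.3, RSEM 1.3.1, DESeq2 1.4.5 and the builds GRCh38 and hg38, without saying which step used which. FPKM holds no read depth and whole reads could not be recovered, so no counting interval is given. Scaling to library size makes each gene depend on all others, and genes that overlap or are related in sequence (the IFITM genes, PARP9 with DTX3L, CMPK2 with RSAD2) may share fragments.

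From the deposited FPKM, log2(FPKM + 1) was fitted with limma 3.58.1 in R 4.3.3, with an intensity trend, all groups of a table in 1 fit and no replicate term. Genes with at least 1 FPKM in at least 2 libraries entered (12607 and 12463). Tests were two-sided, p-values were Benjamini-Hochberg adjusted over all genes tested within each of 20 comparisons, and an adjusted p below 0.05 was a call. Log2 changes on this scale understate the changes of low genes. A relative log2 change is the change minus the median of all tested genes, given where that median was over 0.1 from 0. SE is the standard error of the log2 change, with 2 libraries per group and the spread of each gene pooled over all groups of its table and moderated by limma. The code was tested on simulated data.

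Members and gene lists were chosen with earlier results of these data known. All 50 genes were accounted for by role. Named with values were the 5 called genes with the largest change in each direction of a comparison, together with ISG15, IFI27, IFI6, IFIT1, MX1, OAS1, IFITM1 and IRF9. Some items are not reported here. Genes named beyond that rule, such as DDX60, PARP14, XAF1 and MX2, were chosen after their values were seen. The comparisons of the conditioned-medium response between lines were also added after the data were seen. Alternatives were a pseudocount of 0.1, no filter, quantile normalization, median-centring, a replicate block and leaving out each library. Replicate numbers were not taken to pair libraries.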

Additional observations from a re-analysis of the deposited data

Results flagged for a closer look

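The response to palbociclib differed between lines by limma's test of the difference itself, given here as log2 differences between lines and not relative to the median of all genes. E545K cells responded more than WT cells in MX2 (2.24, adjusted p 1.63e-06), MX1 (1.99, adjusted p 2.75e-08), SAMD9L (1.91, adjusted p 2.61e-05), IFIT1 (1.86, adjusted p 4.6e-06) and IFIT2 (1.83, adjusted p 1.1e-06), and less in LY6E (-0.53, adjusted p 0.0261). H1047R cells responded more than WT cells in IFI27 (2.34, adjusted p 7.54e-07), SAMD9L (1.04, adjusted p 0.00505), ISG15 (0.96, adjusted p 0.00824), RSAD2 (0.86, adjusted p 0.00161) and IFI35 (0.84, adjusted p 0.00294). They responded less in DDX60 (-1.37, adjusted p 0.00335), IFI44L (-0.85, adjusted p 0.00193), IFI44 (-0.58, adjusted p 0.00701), EIF2AK2 (-0.53, adjusted p 0.0184) and HERC5 (-0.44, adjusted p 0.0362). Over 13 alternatives the HERC5 call was lost in 8, with adjusted p up to 0.858, and the EIF2AK2 call in 6, with adjusted p up to 0.0847.

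The response to conditioned medium differed in the same way, in comparisons added after the data were seen. It was larger in E545K than in WT cells for IFI44L (6.11, adjusted p 1.42e-12), IFI6 (5.35, adjusted p 2.19e-11), IFI27 (4.97, adjusted p 8.22e-12), OAS2 (3.50, adjusted p 2.6e-09) and IFITM1 (3.47, adjusted p 5.97e-10), and smaller for IFIT2 (-0.52, adjusted p 0.00536) and OASL (-0.41, adjusted p 0.0455). Those values use the WT conditioned-medium libraries that stood apart from WT. Against H1047R cells, without those libraries, the E545K response was larger for IFI44L (3.91, adjusted p 1.74e-10), OAS2 (3.52, adjusted p 3.94e-09), IFI6 (3.22, adjusted p 5.75e-09), MX1 (3.21, adjusted p 8.81e-11) and SAMD9 (3.13, adjusted p 5.63e-09), and smaller for LY6E (-0.75, adjusted p 0.00271). The E545K DMSO libraries, which correlated more with some groups of other lines than with their own, enter both comparisons.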

How the results depend on the processing

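Counts of the 50 genes moved by over 1.5 times under some settings, and the cause was not tested. Quantile normalization and median-centring, which remove the shift of all genes, gave 17 and 20 falls with conditioned medium in WT cells (10 as deposited), 3 and 3 genes lower in palbociclib than in conditioned medium in WT cells (9), and 9 and 6 genes higher in E545K than in WT cells in DMSO (19). They gave 3 and 3 genes with a smaller palbociclib response in H1047R than in WT cells (5), and median-centring gave 24 with a larger one (14). Median-centring gave 11 genes lower in H1047R than in E545K cells under palbociclib (20). Quantile normalization gave 1 fall with palbociclib in WT cells and 1 in E545K cells (0 each), 6 falls with conditioned medium in H1047R cells (2) and 0 genes lower in palbociclib than in conditioned medium in H1047R cells (1). Median-centring gave 2 falls with palbociclib in E545K cells. Without the filter, 1 fell with conditioned medium in H1047R cells and 0 responded less to palbociclib in E545K than in WT cells (1), as with median-centring. For the smaller conditioned-medium response in E545K cells, no filter gave 1, quantile normalization 1 and median-centring 0 against WT (2), and median-centring gave 2 against H1047R (1).

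Erlotinib calls were the least stable. Without the filter 2 rose and 1 fell in E545K cells (6 and 3), and 1 rose and 0 fell in H1047R cells (2 and 1). Quantile normalization and median-centring also gave 0 falls in H1047R cells. With the replicate block 0 rose and 0 fell in H1047R cells, and the block moved no other count of the 50 by over 1.5 times. Deviations of same-numbered libraries correlated at -0.56 to 0.55 over 36 pairs of groups in the first table and -0.10 to 0.026 over 6 in the second.

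Leaving out 1 library at a time gave 1 to 2 falls with palbociclib in H1047R cells, 4 to 8 rises and 0 to 2 falls with conditioned medium in H1047R cells, and 5 to 8 genes lower in palbociclib than in conditioned medium in WT and 0 to 2 in H1047R cells. It gave 0 to 1 smaller palbociclib responses in E545K than in WT cells, and 7 to 22 larger and 3 to 11 smaller ones in H1047R than in WT cells. H1047R exceeded E545K cells under palbociclib in 4 to 9 genes and was below in 10 to 25. With erlotinib 0 to 4 rose and 1 to 2 fell in E545K cells and 0 to 17 rose and 0 to 7 fell in H1047R cells, and 0 to 8 and 0 to 3 differed between lines. The conditioned-medium response was smaller in E545K than in WT cells in 1 to 2 genes.

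Of 2467 recomputed values of 251 pairs of a named gene and a comparison, 2284 kept direction and call, 150 lost the call, 19 gained one and 14 reversed, all without a call. The reversed log2 changes came from scaling or from leaving out 1 library. For palbociclib against conditioned medium in WT cells, median-centring gave 0.031 for MX1. IRF9 in E545K against WT cells in DMSO was -0.23 after quantile normalization and -0.19 after median-centring. OAS1 in H1047R against E545K cells under palbociclib ranged from -0.048 to 0.15 without single libraries. With erlotinib in E545K cells, leaving out single libraries gave -0.055 to 0.14 for IFI6. With erlotinib in H1047R cells they gave -0.29 to 0.071 for IFI27, -0.16 to 0.15 for IFI6, -0.095 to 0.023 for OAS1 and -0.00080 to 0.11 for IRF9. Quantile normalization and median-centring gave 0.042 and 0.043 for IFI6 and 0.027 and 0.011 for OAS1 there.

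Scaling moved the share of calls that were higher, over all tested genes, by more than 10 percentage points in several comparisons. With palbociclib the share was 80.1% as deposited, 50.8% after quantile normalization and 43.5% after median-centring in WT cells, and 63%, 49.5% and 44% in the same order in E545K cells. With conditioned medium it was 73.6%, 51.3% and 45.6% in WT cells and 56.6%, 49.2% and 42.9% in E545K cells. In DMSO it was 82.3%, 53% and 43.8% for E545K against WT and 74%, 51.5% and 41.6% for H1047R against WT. For palbociclib against conditioned medium in WT cells it was 34.1%, 48.3% and 53.1%, for H1047R against E545K under palbociclib in the first table it was 29.2%, 54.3% and 61.6%, and for the palbociclib response of H1047R against WT 22.8%, 51.9% and 64%. For the conditioned-medium response of E545K it was 21.3%, 46.2% and 47.4% against WT and 55.4%, 47.8% and 39.4% against H1047R. With erlotinib it was 32.1%, 45.9% and 50.8% in H1047R cells and 41.5%, 43.1% and 55.3% for the difference between lines.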
